A study of Mus musculus with 15 samples.

Results

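In the mouse T cell lymphoma line EL4, the H3K36me2-only accessible sites were the merged ATAC-seq peaks on the 19 autosomes that shared at least 1 bp with a merged H3K36me2 peak and none with a merged H3K4me3, H3K9ac, H3K27ac or H3K27me3 peak. This rule chose 1038 of the 20273 autosomal ATAC-seq peaks, which was 5.12% of them (20771 ATAC-seq peaks in all). The overlaps with the 5 marks chose the sites, so they are given as a description and with no test. The other autosomal peaks comprised 6917 that touched H3K36me2 together with at least 1 of the active marks H3K4me3, H3K9ac and H3K27ac, 10187 that touched an active mark without H3K36me2, 1846 that touched no mark and 285 that touched H3K27me3.

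All libraries came from untreated EL4 cells, a T lymphocyte lymphoma line of C57BL/6N origin, and accessible chromatin and each histone mark were mapped with 2 replicates. EL4 is a single tumor cell line, and the methods call the replicates technical, so that differences between them do not measure variation between cultures. Peaks of H3K4me3 in both replicates were found within 2 kb of the annotated start (or, with no start entry, of either end) of 5 of 5 T cell genes (Cd3e, Cd3d, Cd3g, Lck and Thy1). On the autosomes, the deposited lists held 17101 and 18788 ATAC-seq intervals in replicates 1 and 2, and 38566 and 40476 H3K36me2 intervals that covered 304 and 302 Mb. The lists carry no scores or read counts, so the depth behind a peak is unknown.

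H3K36me2 is a methylation of histone H3 deposited by the NSD family and ASH1L, and it is spread over broad domains that cover gene bodies and the intergenic DNA between active genes. It counteracts the deposition of H3K27me3 by Polycomb repressive complex 2. ATAC-seq marks DNA that the Tn5 transposase can reach, most of it at promoters and enhancers, where nucleosomes usually carry H3K4me3 or acetylated lysines. Accessible sites that lack these marks can be occupied by other DNA-binding proteins, of which the insulator protein CTCF is a well-known example.

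Few of the sites lay at a gene start. Of the 1000 sites on the 18 autosomes with entries in the RefSeq promoter table of GRCm38.p6, 13 (1.30%) touched a promoter window, which runs from 250 bases before to 50 bases after a gene start, against 35.8% of all ATAC-seq peaks on these autosomes and 33.6% of the peaks with H3K36me2 and an active mark. The rule removes peaks that carry the marks of active promoters, so that this share was not independent of it. In the wider start windows given with the gene positions, the shares of the sites (7.50%) and of peaks with no mark (10.9%) were close. The 13 sites touched 15 promoter windows, of which 3 were touched by 1 site (Pcbp1 and, at separate starts, 1600020E01Rik). Stretches of 8 of these windows are shown, from genes of general cell function, MHC class II genes and promoters with a CTCF core, because only at promoters are bases of the sites known here. Each run holds the bases upstream of the gene start that lie inside the ATAC-seq peak, 5′ to 3′ on the strand of the gene, and capitals mark matches on either strand to the CTCF core and the core of ETS factors (CCGGAAG), the TATA box (TATAAA), the CCAAT box (CCAAT) and the GC box (GGGCGG). None of these motifs contains another.

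The first set belongs to genes of general cell function. Pcbp1 encodes an RNA-binding protein (chr6:86526190-86526439, minus strand), Tuba1b an alpha-tubulin (chr15:98934391-98934640, minus strand) and Eef2 the elongation factor that moves the ribosome along the mRNA (chr10:81176438-81176630, plus strand).
Pcbp1: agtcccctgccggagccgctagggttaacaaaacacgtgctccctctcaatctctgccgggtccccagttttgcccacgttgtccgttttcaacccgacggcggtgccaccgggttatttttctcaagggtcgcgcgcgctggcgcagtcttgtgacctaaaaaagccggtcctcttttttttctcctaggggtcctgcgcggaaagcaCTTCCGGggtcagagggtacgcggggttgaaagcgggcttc
Tuba1b: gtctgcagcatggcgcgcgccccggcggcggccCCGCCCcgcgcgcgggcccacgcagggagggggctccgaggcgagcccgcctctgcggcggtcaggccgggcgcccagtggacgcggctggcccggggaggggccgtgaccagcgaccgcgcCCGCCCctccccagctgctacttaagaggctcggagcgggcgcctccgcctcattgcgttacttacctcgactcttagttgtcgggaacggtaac
Eef2: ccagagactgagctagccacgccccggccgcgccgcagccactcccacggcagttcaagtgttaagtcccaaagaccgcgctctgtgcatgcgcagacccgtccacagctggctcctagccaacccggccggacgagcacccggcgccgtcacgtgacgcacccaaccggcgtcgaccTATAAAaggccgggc

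These 3 sites were found in both ATAC-seq replicates. The site at Pcbp1, 1249 bp wide, was the widest of all 1038, and was covered by H3K36me2 over 1249 bp in replicate 1 and 1141 bp in replicate 2. The site at Tuba1b was 952 bp wide and the site at Eef2 427 bp, and H3K36me2 covered both of them whole in replicate 1 and not at all in replicate 2. Peaks of active marks were not far away. The nearest lay 1097 bp from the site at Pcbp1, 2200 bp from that at Tuba1b and 897 bp from that at Eef2. In the printed stretches, the Pcbp1 promoter held 1 ETS core, the Tuba1b promoter GC boxes and the Eef2 promoter a TATA box.

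The second set belongs to MHC class II genes, which professional antigen-presenting cells use to show peptides to helper T cells. The H2-Eb1 stretch is chr17:34305628-34305866 (plus strand) and the H2-Aa stretch chr17:34287824-34287927 (minus strand).
H2-Eb1: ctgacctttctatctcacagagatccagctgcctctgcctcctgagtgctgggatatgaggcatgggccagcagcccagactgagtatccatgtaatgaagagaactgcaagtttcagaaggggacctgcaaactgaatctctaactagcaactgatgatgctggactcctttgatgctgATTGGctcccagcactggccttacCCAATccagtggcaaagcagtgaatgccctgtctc
H2-Aa: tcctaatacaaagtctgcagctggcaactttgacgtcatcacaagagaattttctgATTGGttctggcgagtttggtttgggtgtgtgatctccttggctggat

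The site at H2-Eb1 was 349 bp wide, was found in both ATAC-seq replicates and crossed the edge of an H3K36me2 domain, with 176 bp inside the domain in each H3K36me2 replicate. An active-mark peak lay 367 bp away. The site at H2-Aa had the minimum width of 200 bp and was found in ATAC-seq replicate 1 and H3K36me2 replicate 1 only. Both stretches hold CCAAT boxes near the gene start.

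The third set consists of the promoters with a match to the CTCF core. Amigo3 encodes an adhesion protein (chr9:108052909-108053158, plus strand), Nsfl1c a cofactor of the p97 ATPase (chr2:151493934-151494181, plus strand) and Hsd3b7 an enzyme of bile acid synthesis (chr7:127800391-127800590, plus strand).
Amigo3: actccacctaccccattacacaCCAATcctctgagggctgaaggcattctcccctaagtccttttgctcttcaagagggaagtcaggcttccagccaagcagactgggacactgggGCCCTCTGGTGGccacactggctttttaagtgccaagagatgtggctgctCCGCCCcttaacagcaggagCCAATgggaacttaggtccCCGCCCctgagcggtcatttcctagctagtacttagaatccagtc
Nsfl1c: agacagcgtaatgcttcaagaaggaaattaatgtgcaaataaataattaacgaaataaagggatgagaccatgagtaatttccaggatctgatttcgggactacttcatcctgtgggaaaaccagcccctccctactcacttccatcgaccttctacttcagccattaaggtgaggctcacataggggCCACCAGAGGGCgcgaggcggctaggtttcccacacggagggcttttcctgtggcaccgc
Hsd3b7: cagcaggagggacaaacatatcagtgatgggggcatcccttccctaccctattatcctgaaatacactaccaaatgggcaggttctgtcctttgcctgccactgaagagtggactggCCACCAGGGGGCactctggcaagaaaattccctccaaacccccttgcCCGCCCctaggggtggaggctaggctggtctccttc

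The CTCF core occurred in 3 of the 15 promoter windows touched by the sites, against 2.47% of all 31396 promoter windows and 3.21% of the 2961 windows touched by ATAC-seq peaks with H3K36me2 and an active mark. Within the whole windows, the ETS core occurred in 2 of 15, against 9% of all windows and 22.7% of those touched by peaks with H3K36me2 and an active mark. The GC box occurred in 6 of 15, against 36% and 70.3%, and the CCAAT box in 7 of 15, against 37.3% and 37.8%. The RUNX core (TGTGGTT) and the TCF/LEF core (CTTTGAA) occurred in 0 of 15, against 5.32% and 5.09% of all windows and 3.58% and 3.17% of those touched by peaks with H3K36me2 and an active mark. The GATA core (AGATAA) occurred in 2, the AP-1 core (TGANTCA) in 1 and the TATA box in 1, against 11.2%, 7.84% and 13.6% of all windows and 4.63%, 4.59% and 4.93% of those touched by peaks with H3K36me2 and an active mark. With 15 windows, 3 of them from 1 site, these counts are a description of letters in the sequence. The site at Amigo3 was 423 bp wide and supported by both replicates of ATAC-seq and of H3K36me2, and lay 2716 bp from the nearest active-mark peak. The site at Nsfl1c was 780 bp wide, crossed the edge of a domain with 313 bp in H3K36me2 of replicate 1 and 0 bp in replicate 2, and lay 1934 bp from an H3K27me3 peak, while the site at Hsd3b7, 200 bp wide, was found in ATAC-seq replicate 2 only.

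The number of sites depended on the replicate. With replicate 1 of ATAC-seq and of all marks, 560 sites passed the rule (3.27% of its ATAC-seq peaks), and with replicate 2 it was 723 (3.85%), with a mean of 642 ± 115 sites (SD, n = 2). Exchanging the replicates gave 526 sites from ATAC-seq replicate 1 with the marks of replicate 2, and 765 from ATAC-seq replicate 2 with the marks of replicate 1. Leaving out ATAC-seq replicate 2 alone, with the merged marks kept, gave 631. With either set of marks ATAC-seq replicate 2, the longer list, gave more sites.

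Most sites were found in a single ATAC-seq library. Of the 1038 sites, 411 (39.6%, exact 95% confidence interval 36.6 to 42.6%, counting error only) were touched by intervals of both ATAC-seq replicates, against 72.7% of all autosomal ATAC-seq peaks. ATAC-seq replicate 2 alone gave 426 sites (41.0%) and replicate 1 alone 201 (19.4%). The share in both replicates was 76.7% for peaks with H3K36me2 and an active mark, 80.2% for peaks with an active mark only and 37.5% for peaks with no mark. It was lower for the H3K36me2-only sites than for peaks with H3K36me2 and an active mark on 19 of 19 autosomes. No test was run between these classes, since peaks of the same libraries are not replicates. Each class was measured in the same 2 libraries, which are too few for a paired test.

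**Figure D1:**
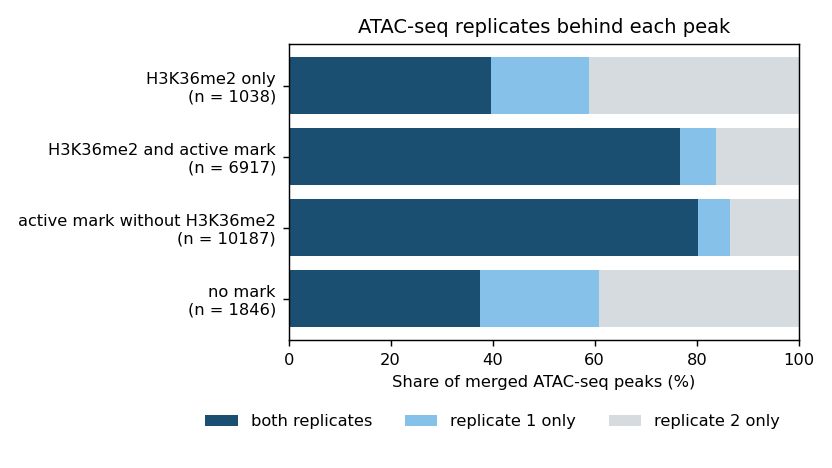
Share of merged autosomal ATAC-seq peaks (percent, horizontal axis) found in both ATAC-seq replicates, in replicate 1 only or in replicate 2 only, for 4 classes of peaks defined by the marks they touch. The H3K36me2-only sites have 39.6% in both replicates and resemble the peaks with no mark (37.5%), whereas both classes with an active mark have more (76.7% and 80.2%).

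The sites were narrow. Their median width was 277 bp, with quartiles of 218 and 341 bp, against 470 bp for peaks with H3K36me2 and an active mark and 447 bp for all autosomal ATAC-seq peaks. The widths ran from 200 bp, the smallest interval in the lists, to 1249 bp, and 172 sites (16.6%) had exactly 200 bp against 6.48% of all peaks. At least 500 bp were reached by 41 sites (3.95%) against 42.7% of all peaks. In the separate lists, the intervals behind the sites had a median width of 254 bp in replicate 1 and 263 bp in replicate 2 (mean 259 ± 6.36, SD, n = 2), against 425 and 442 bp for peaks with H3K36me2 and an active mark (mean 434 ± 12.0, SD, n = 2), so that the gap was larger than the spread between replicates. The median was lower than that of the latter peaks on 19 of 19 autosomes. A wider peak has more bases with which to touch an excluded mark, so width was not independent of the rule.

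**Figure D2:**
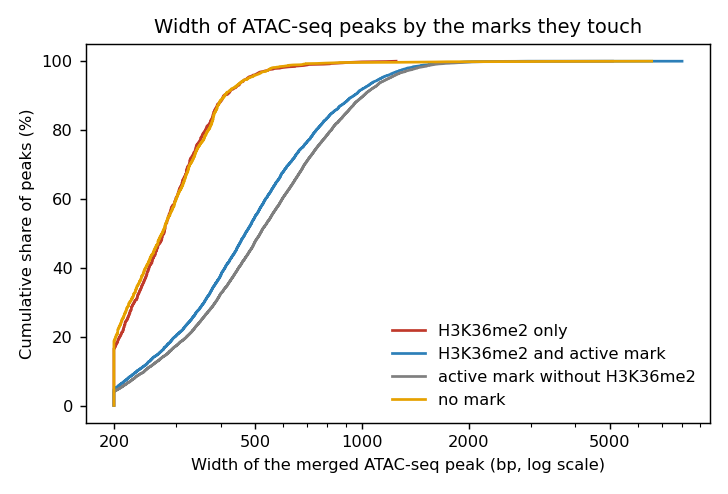
Cumulative share of merged autosomal ATAC-seq peaks (percent) against their width (bp, log scale) for 4 classes of peaks defined by the marks they touch. The curve of the H3K36me2-only sites (median 277 bp) runs with that of peaks with no mark (median 274 bp), to the left of both classes with an active mark (470 and 517 bp).

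Replicate support moved with width. Among sites of 200 to under 300 bp, 16.6% of 626 were found in both ATAC-seq replicates, and among peaks of this width with H3K36me2 and an active mark 18.8% of 1402. The shares were 69.1% and 72.2% from 300 to under 400 bp, 82.5% and 90.9% from 400 to under 500 bp, and 97.6% and 99.1% from 500 bp. Within a width range the 2 classes with H3K36me2 were therefore much closer to each other than over all widths (39.6% and 76.7%). Sites in both replicates had a median width of 342 bp and those in a single replicate 233 bp. These are widths of merged peaks, which span the intervals of both replicates where both called one. Width was therefore not independent of replicate support, and the shares within a width range are a description.

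On the side of H3K36me2, 611 sites (58.9%) were touched by both H3K36me2 replicates, 241 (23.2%) by replicate 1 only and 186 (17.9%) by replicate 2 only. Among peaks with H3K36me2 and an active mark, 46.5% were touched by both H3K36me2 replicates. The 2 kinds of support did not rise together, since 36.3% of the sites with H3K36me2 in both replicates were found in both ATAC-seq replicates, compared with 40.2% and 49.5% of those with H3K36me2 in replicate 1 only and replicate 2 only. Both replicates of ATAC-seq and of H3K36me2 supported 222 of the 1038 sites (21.4%). In 192 of the 1038 (18.5%), the whole width also lay in H3K36me2 of both replicates.

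The 10 widest of these 192 sites are described here. The widest, on chromosome 5 from 118081540 to 118082713 (1174 bp), lies in Fbxw8, which encodes an F-box protein of a ubiquitin ligase, 35326 bp from the edge of an H3K36me2 domain of 108599 bp. A site of 852 bp lies in Nfkb1, the gene of the NF-kappa-B subunit p50, on chromosome 3 between 135665488 and 135666339, 22664 bp from the nearest active-mark peak. A site of 818 bp on chromosome 5 from 134676069 to 134676886 lies in Limk1, a kinase gene of actin turnover, and touches the start of the noncoding gene Gm10369. A site of 707 bp on chromosome 3 from 101238775 to 101239481 touches no gene, and its nearest protein-coding gene is Cd2, a T cell adhesion receptor, at 36426 bp.

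Chromosome 5 held 127 of all 1038 sites, the most of any autosome, and 5 of the 10 named widest sites. Besides those in Fbxw8 and Limk1, they lay in Pitpnm2 (from 124241304 to 124241890, 587 bp), in Pxn, which encodes the focal adhesion protein paxillin (from 115538511 to 115539077, 567 bp), and 3034 bp from Otop1, a proton channel gene (from 38273820 to 38274369, 550 bp). The others were a site of 564 bp in Sema4d on chromosome 13 from 51748020 to 51748583, a site of 561 bp on chromosome 1 from 86532215 to 86532775, 1502 bp from the prothymosin gene Ptma, and a site of 813 bp on chromosome 18. The 10 sites lay between 2124 and 24967 bp from the nearest active-mark peak. Of the 10, 6 were gene-interior by the windows given with the gene positions. These windows lie at the outer ends of genes only, and the gene-interior site in Sema4d lay 509 bp from an annotated gene start.

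Within the H3K36me2 domains, the sites were spread from edge to centre. The sites fell into 975 of the 39920 autosomal domains (2.44%), and 918 of these domains held a single site. The domains with a site had a median width of 17399 bp against 5599 bp for those without. With the domains divided by width into 4 groups of about equal number, the widest group (11199 to 218599 bp) held 719 sites in 239 Mb and the narrowest (up to 3399 bp) 37 sites in 23.4 Mb, or 1.58 per Mb against 3.00 per Mb in the widest. Peaks with H3K36me2 and an active mark went from 7.04 to 21.2 per Mb between the same groups.

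The relative place of a peak midpoint runs from 0 at a domain edge to 0.5 at the centre, and peaks spread evenly would have a median of 0.25. The median of the sites was 0.241, and each of 5 equal bins from edge to centre held between 17.6 and 21.7% of them. Of the peaks with H3K36me2 and an active mark, 43.1% lay in the outermost bin, and their median place was 0.143. The sites had the higher median on 18 of 19 autosomes. Only 63 sites (6.07%) crossed a domain edge, compared with 25.5% of the peaks with an active mark, and the share was lower on 19 of 19 autosomes. A wider peak has more bases with which to cross an edge. The sites were narrower (median 277 against 470 bp), and crossing was not split by width. The midpoints lay 3619 bp (median) from the nearest edge, against 2514 bp. Windows at gene starts were drawn on the 18 autosomes with promoter entries, and genes without an entry had none. With these autosomes alone and the windows left out, the median place was 0.244 for 925 sites. It was 0.217 for 3684 peaks with H3K36me2 and an active mark, and 5.73% and 17.0% crossed an edge. Away from gene starts the 2 classes were thus closer in their median place. They were also closer among peaks with H3K36me2 in both replicates, with medians of 0.268 for the sites and 0.236 for peaks with an active mark, of which 1.47% and 10.0% crossed an edge. Place within the domain was not independent of the rule, which removes peaks that carry the marks of active promoters.

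**Figure D3:**
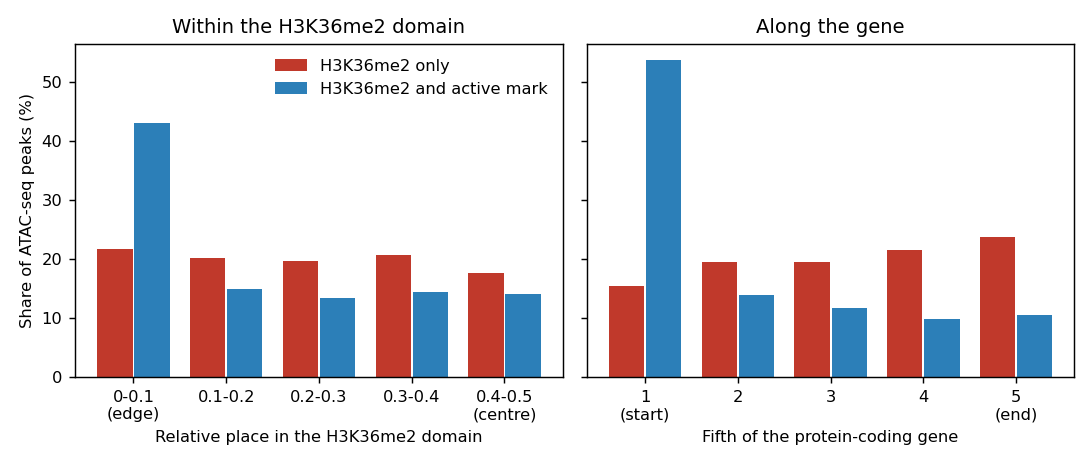
Share of ATAC-seq peaks (percent) in 5 bins of relative place within the H3K36me2 domain (left, 0 at the edge and 0.5 at the centre) and in 5 equal parts of the protein-coding gene they lie in, from start to end (right), for H3K36me2-only sites and for peaks with H3K36me2 and an active mark. Each bin holds 15.5 to 23.8% of the sites in both panels, while the peaks with an active mark gather at the domain edge (43.1%) and in the first part of the gene (53.8%). The rule removes peaks that carry the marks of active promoters, so neither panel is independent of it.

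Of the 1038 sites, 376 (36.2%) lay in a domain that also held an ATAC-seq peak with an active mark. Such a peak was held by 34.8% of the domains with a site and by 11.9% of all autosomal domains. Domains with a site were also wider (median 17399 bp against 5599 bp for those without), and the shares were not split by width. No domain held more than 3 sites and 6 domains held 3, of which the 5 widest are named. The widest, on chromosome 5 from 118562201 to 118722799 (160599 bp), covers much of Med13l, and its 3 sites, 284 to 374 bp wide, were found in all 4 libraries. A domain of 81199 bp on chromosome 5 over Kntc1 held 3 sites and 0 ATAC-seq peaks with an active mark. The other domains lie over Prep (91199 bp), Rtn4 and Eml6 (78999 bp) and Vash1 and Angel1 (48999 bp). The 3 sites in Prep were each found in a single ATAC-seq replicate.

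Relative to genes, most of the sites were interior. Each RefSeq gene was given a window at both of its ends, reaching 3 kb outward and 2 kb inward. Peaks that touched such a window were counted at a gene end, and other peaks that touched a gene as gene-interior. Further starts inside a gene had no window, so gene-interior peaks can lie close to a start. Of the sites, 619 (59.6%) were gene-interior against 27.2% of all autosomal ATAC-seq peaks, 255 (24.6%) lay at a gene end against 59.0%, and 164 (15.8%) in neither against 13.9%. The gene-interior share was 32.2% for peaks with H3K36me2 and an active mark and 37.9% for peaks with no mark. It was higher for the sites than for the former on 19 of 19 autosomes. Gene position was not independent of the rule, which removes peaks that carry the marks of active promoters.

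The gap to peaks with H3K36me2 and an active mark was found at each width. Below 300 bp, 59.3% of the sites and 44.2% of those peaks were gene-interior, and from 500 bp the shares were 61.0% and 20.3%. It was smaller away from gene starts. On the 18 autosomes with promoter entries, 7.50% of the sites touched a window from 3 kb upstream to 2 kb downstream of a gene start. The share was 47.5% for all peaks and 10.9% for peaks with no mark, so a low share was not particular to the sites. Among the peaks outside these windows, the gene-interior shares were 63.6% for the sites and 52.3% for peaks with H3K36me2 and an active mark. For peaks with no mark it was 41.7%.

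**Figure D4:**
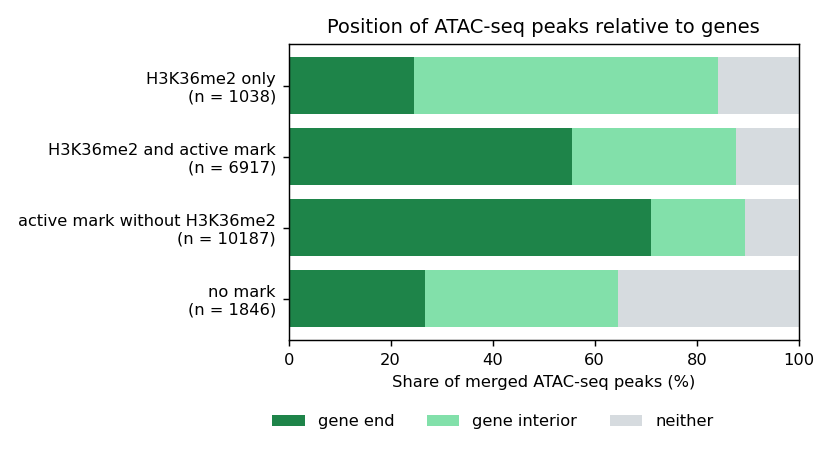
Share of merged autosomal ATAC-seq peaks (percent, horizontal axis) at gene ends, in gene interiors and in neither, for 4 classes of peaks defined by the marks they touch. The H3K36me2-only sites have the largest gene-interior share of the 4 classes, 59.6%, and a share at gene ends of 24.6%.

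Along the gene, 576 sites had their midpoint in a protein-coding gene of known strand, and lay at 55.6% of its length (median), 32.1 kb from the start. The first to last of 5 equal parts of the gene held 15.5, 19.6, 19.6, 21.5 and 23.8% of them. Of 3682 peaks with H3K36me2 and an active mark, 53.8% lay in the first part, and their median was 15.6% of the gene length. The rule removes peaks that carry the marks of active promoters, so that place along the gene was not independent of it. Exons and introns were not analysed here.

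The sites touched 624 of the 20665 autosomal protein-coding genes (3.02%). Of the sites, 704 (67.8%) touched such a gene, 59 (5.68%) a gene of another type only and 275 (26.5%) no gene. The genes touched had a median length of 65.0 kb against 17.5 kb for all, and 552 of them held 1 site. A longer gene has more bases with which to touch any peak, so gene length was not independent of being touched. Sites outside genes had their nearest protein-coding gene at a median of 8604 bp, with quartiles of 2012 and 36536 bp.

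The 10 named genes with the most sites were between 71902 and 353360 bp long, with ties settled by the sites in both ATAC-seq replicates and then by name. Tango6 on chromosome 8 had 5 sites, 218 to 345 bp wide, of which 1 was found in both ATAC-seq replicates. Med13l, which encodes a subunit of the Mediator kinase module, had 4 sites at 50.7, 71.0, 72.2 and 86.5% of its length. Of these, 3 were found in both ATAC-seq replicates, all 4 had H3K36me2 in both replicates, and each was at least 71628 bp from an active-mark peak. Camk2d, the gene of a calcium- and calmodulin-dependent kinase subunit, had 4 sites, with 1 in both ATAC-seq replicates.

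The remaining 7 genes had 3 sites each, as did Vps13d, Zfhx3 and Prep, which came after them by the rule for ties. Of these, 2 were found in both ATAC-seq replicates in Arid1b (a subunit of the BAF chromatin remodeling complex), Eml6, Kntc1 (a kinetochore protein) and Vav3 (a guanine nucleotide exchange factor). In Cux1 (a homeobox transcription factor), Iqsec1 (an exchange factor for ARF GTPases) and Sema4d (a semaphorin of lymphocytes) it was 1. At Kntc1, a site of 327 bp lay 17 bp from an active-mark peak, whereas the sites in Iqsec1 lay between 2354 and 171569 bp away.

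In the gene lists, 3 of 15 T lineage transcription factors were touched, against 3.02% of all autosomal protein-coding genes. Runx1 and Ikzf1, which act throughout lymphocyte development, had 2 sites each with 1 in both ATAC-seq replicates, and Tox had 1 site from ATAC-seq replicate 2 only. The site of 364 bp in Ikzf1, on chromosome 11 from 11742665 to 11743028, was found in all 4 libraries and lay 236 bp from an active-mark peak. The site of 318 bp in Runx1, on chromosome 16 from 92641121 to 92641438, had its midpoint outside the domain it touched, which came from H3K36me2 replicate 2 only. These genes are long, with 88.0 kb (Ikzf1), 225 kb (Runx1) and 305 kb (Tox) against the median of 17.5 kb.

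Of 15 genes of the T cell receptor complex and its proximal signaling, only Ptprc was touched, which encodes the phosphatase CD45. It had 2 sites, 243 and 266 bp wide, at 41.0 and 18.6% of its length, of which the latter was found in both ATAC-seq replicates. Of 13 H3K36 methyltransferases and demethylases, Nsd3 was touched, by a site of 311 bp that lay 99 bp from an active-mark peak and was found in ATAC-seq replicate 2 only. None of the genes of chromatin architecture (0 of 8 on autosomes), of the housekeeping list (0 of 7) and of the developmental genes (0 of 10) was touched. Over all autosomal protein-coding genes the share touched was 3.02%, so that counts of 0 or 1 in lists of this length say nothing particular about them.

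The sites were often in the neighborhood of active chromatin. The nearest H3K4me3, H3K9ac or H3K27ac peak lay at a median of 7739 bp, with quartiles of 1996 and 21351 bp, compared with a median of 21685 bp for ATAC-seq peaks with no mark. It was within 200 bp for 114 sites (11.0%), within 1 kb for 195 (18.8%), within 5 kb for 409 (39.4%) and within 100 kb for 1002 (96.5%). For peaks with no mark these shares were 5.74, 11.6, 25 and 83.4%. An H3K27ac peak lay within 1 kb of 189 sites (18.2%), against 9.91% of peaks with no mark. H3K4me3 did so for 48 sites (4.62%, against 6.07%) and H3K9ac for 44 (4.24%, against 4.88%). The merged H3K27ac list was also the longest, with 27594 autosomal peaks against 17931 for H3K4me3 and 20049 for H3K9ac. For H3K27me3 the median distance was 101588 bp, near the 92635 bp of peaks with H3K36me2 and an active mark. It was 80764 bp for all autosomal ATAC-seq peaks and 49682 bp for those with no mark. An H3K27me3 peak lay within 1 kb of 2 sites (0.193%), against 6.07% of the peaks with no mark. The nearest other ATAC-seq peak lay at a median of 11107 bp and the nearest other H3K36me2-only site at 225125 bp. These distances are bounded from below by the rule and are a description.

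At the limit of the rule, 37 sites had less than 50% of their width in H3K36me2 and 4 less than 10%. The smallest overlaps were 10 bp for a site in Arid1b, 11 bp for a site in Dbr1, 15 bp for a site on chromosome 8, and 36 bp each for a site on chromosome 19 in A330040F15Rik and a site on chromosome 7. Just outside, the 5 peaks with no mark that came nearest to H3K36me2 were 1, 1, 2, 10 and 11 bp from it, and 84 of the 1846 peaks with no mark were within 200 bp. Of the peaks with H3K36me2 and an active mark, 33 had less than 10% of their width in an active-mark peak.

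The autosomes differed in their share of sites. On chromosome 5, 127 of 1511 ATAC-seq peaks (8.41%) were H3K36me2-only, the highest share, and on chromosome 14 it was 12 of 591 (2.03%), the lowest, with a median of 4.90% over the 19 autosomes. Per Mb of H3K36me2 domain there were 4.45 sites on chromosome 5 and 1.39 on chromosome 14. Of the sites on chromosome 5, 44.1% were found in both ATAC-seq replicates, and their median width was 280 bp. Peaks with no mark made up 10.3% of the ATAC-seq peaks on chromosome 5 and 11.0% on chromosome 14.

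**Figure D5:**
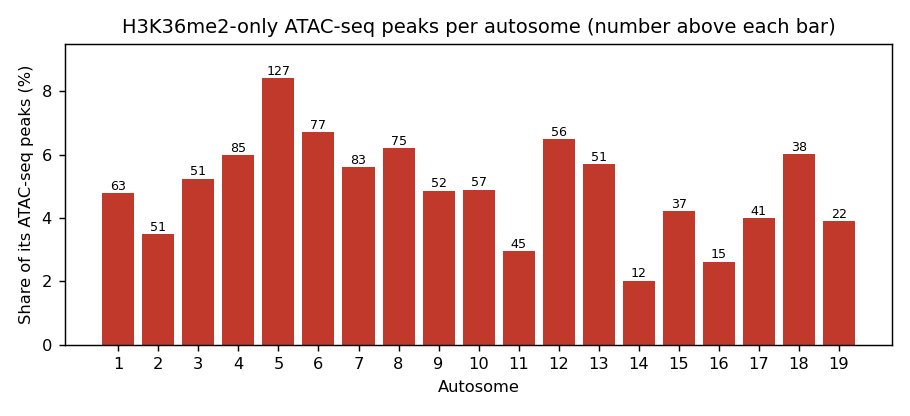
Share of the merged ATAC-seq peaks of each autosome that were H3K36me2-only (percent, vertical axis), with the number of sites above each bar. Chromosome 5 has the highest share (8.41%, 127 sites) and chromosome 14 the lowest (2.03%, 12 sites).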

How the data were processed

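ChIP-seq of 5 histone marks and ATAC-seq were used, from 12 deposited lists. Per the methods, the authors aligned paired reads with STAR 2.5 to GRCm38, kept unique alignments and ran Picard against PCR bias. They called peaks in each replicate with macs2 (H3K4me3, H3K9ac, H3K27ac and ATAC-seq) or Epic (H3K27me3 and H3K36me2), with the input as control for ChIP-seq. The lists give the chromosome, start and end in base pairs, with no normalization and no depth. The labels give reads of 38 and 37 bp and a tagmentation of 30 min, and the methods differ from them on both.

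Intervals of both replicates were merged where they overlapped or adjoined. A site touches a mark with at least 1 bp, and its domain is the merged H3K36me2 peak with the largest overlap. Genes and promoters are those of RefSeq, GRCm38.p6, and 79.6% of the autosomal protein-coding genes had a promoter entry. No test was run. Members, gene lists and motifs were chosen with earlier results of these data known, and the TATA, CCAAT and GC boxes after the promoter sequences were examined. Named were the 10 widest sites lying whole in H3K36me2 of both replicates and found in both ATAC-seq replicates, the 10 protein-coding genes touching the most sites, the 5 domains with the most sites (ties by width), 5 peaks on either side of the limit of the rule, and each touched gene of 6 lists. Counts were checked against bedtools 2.31.1 in 6 comparisons, of which 0 differed, and the functions were tested on simulated intervals. Alternatives varied replicates, overlap, merging, width, gene windows and chromosome X. Python 3.11.15, numpy 2.4.6, pandas 2.3.3, scipy 1.17.1 and matplotlib 3.10.9 were used. Input and RNA-seq data were not analysed here.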

Additional observations from a re-analysis of the deposited data

Results flagged for a closer look

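The rule was applied to autosomes, and chromosome X was outside it, although the methods state that reads on this chromosome were discarded. The lists do hold intervals on it. Of its 498 merged ATAC-seq peaks, 5 (1.00%) touched H3K36me2 and no other mark. Of these 5, 3 were found in both ATAC-seq replicates, and their median width was 297 bp.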

How the results depend on the processing

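The number of H3K36me2-only sites was 411 with ATAC-seq peaks touched by both replicates, 611 with H3K36me2 in both replicates and 41 with peaks of at least 500 bp, each of which uses fewer intervals. Leaving out replicates of all assays, of ATAC-seq or of H3K36me2 gave between 560 (all assays without replicate 2) and 852 sites, and without ATAC-seq replicate 2 there were 631. The other 6 alternatives gave between 841 sites (excluded marks widened by 1000 bp) and 1363 (an excluded mark had to cover 50% of the peak), and merging broad intervals 1 bp apart, added after the data were examined, gave 1038. The share of sites in both ATAC-seq replicates was 36.3% with H3K36me2 in both replicates, 44.9% where an excluded mark had to cover 50% of the peak and 97.6% for peaks of at least 500 bp. It was 37.4 to 39.4% without either H3K36me2 replicate.

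The median width was 342 bp for sites in both ATAC-seq replicates, 272 bp with H3K36me2 in both replicates, 279 bp with excluded marks in both replicates, 287 bp where an excluded mark had to cover 50% of the peak and 591 bp for peaks of at least 500 bp. It was 254 and 263 bp in the lists of replicates 1 and 2, and 255 to 276 bp when replicates were left out. The median relative place was 0.217 within the intersection of both H3K36me2 replicates, and 0.2264 to 0.2498 without either of them. The gene-interior share was 64.2% with H3K36me2 in both replicates, a setting added after the data were examined, and 67.8% with gene windows of 1 kb, and 59.6 to 62.9% when replicates were left out. The median distance to an active-mark peak was 7326 and 7389 bp when replicates were left out. No paired analysis was possible because the results come from no test. The lists give no read depth, which limits every statement to positions of called intervals.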
